A study of Homo sapiens with 8 samples.

Results

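The mitotic genes described here are 40 genes of late G2 and mitosis, listed by name and read over all 4 groups of the study. They comprise cyclins and kinases, checkpoint, centromere, motor, cytokinesis and chromosome proteins. Of the 40, 30 had a probe set with their name on the array, out of 14884 named genes in all, and each of the 30 had 1 probe set. The other 10 (UBE2C, CENPE, CENPF, NUF2, TPX2, DLGAP5, ASPM, ANLN, NCAPG and NCAPH) were unnamed in the annotation used here and were not analysed here. All 30 measured members were kept, with no filter on low values, and over the 8 arrays their mean levels lay between 6.53 and 10.6 on the log2 scale.

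Expression was measured on whole-transcript microarrays in A673 and SK-ES1, a pair of established human Ewing sarcoma cell lines. In each line, cells had either the hairpin shRING1B, directed at RING1B, or shGFP, directed at GFP and used as control, and each of these 4 groups had 2 arrays. Each group is thus 1 line with 1 hairpin, so a property of a line cannot be told apart from a property of that one culture stock, and the sources used here do not give the hairpin sequences or the time after their introduction. Nothing in the labels says that the 2 arrays of a group came from separate cultures, so the p-values measure the spread between these arrays, which may be technical. RING1B is the catalytic ubiquitin ligase of Polycomb repressive complex 1, and without a value for its own gene the depth of the knockdown is unknown here.

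Entry into mitosis is driven by cyclin-dependent kinase 1 bound to cyclin B, and is carried on by the Polo and Aurora kinases. The spindle checkpoint holds the anaphase-promoting complex inactive until each kinetochore is attached, after which sister chromatids part and the cell divides. The genes of these proteins are switched on together in late G2 by the transcription factors B-MYB and FOXM1 with the MuvB complex, and are held down in resting cells by the DREAM complex, so their RNA is widely read as a sign of proliferation. In Ewing sarcoma the driving lesion is a fusion of EWSR1 with an ETS factor, most often FLI1. In bulk RNA, a smaller share of dividing cells and less RNA per dividing cell cannot be told apart.

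The array medians lay between 4.01 and 4.10, and the correlation between the 2 arrays of a group was 0.991 to 0.994 over the 14884 genes. Of 9 Ewing sarcoma markers 4 were measured (CD99, NKX2-2, STEAP1 and BCL11B), with levels between 7.34 and 12.3 over the 8 arrays. The measured immune markers (CD14 and LYZ, 2 of 5) lay between 2.97 and 3.64, the endothelial ones (PECAM1, VWF and KDR, 3 of 4) between 3.02 and 4.28, and the epithelial ones (EPCAM, KRT5 and KRT14, 3 of 4) between 3.11 and 4.92. Of 4 fibroblast markers DCN and LUM were measured. LUM, a matrix proteoglycan, stood between 5.34 and 6.38 in SK-ES1 and between 2.77 and 3.21 in A673. DCN, also a matrix proteoglycan, stood between 4.07 and 4.34 in SK-ES1 and between 3.38 and 3.53 in A673.

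Promoters of G2 and M genes are known for 2 short elements: the cell cycle genes homology region (CHR), the site of the MuvB complex, and the CCAAT box, the site of NF-Y. RefSeq's promoter windows (GRCh38.p14, 250 bases before to 50 bases after each start) were searched for TTTGAA or TTCGAA as the CHR, and for CCAAT, on both strands. Windows were found for 34 of the 40 members by symbol, 4 of them with several starts, which gave 40 windows. The CHR letters were present in 29 of these 40 windows (72.5%) and in 16.4% of all 35116 windows. The CCAAT letters were present in 30 of 40 (75%) and in 34.6% of all windows, and both in 23 of 40 (57.5%) and in 6.38% of all. Counted by gene, 8 measured members with a window were lower in SK-ES1 under shGFP (described below). The CHR letters were found in 6 of these 8 and in 14 of the other 18, against 19.5% of all genes with a window. Counted by window, they were found in 7 of 12 and in 16 of 20. The 160 bases before the start are shown 5′ to 3′ for 6 members that were lower in SK-ES1 and for PLK1, which was not called under shGFP, so that the spacing of the 2 elements can be compared. Capitals mark the CHR and CCAAT letters of either strand.

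MKI67, chr10:128126424-128126583, minus strand: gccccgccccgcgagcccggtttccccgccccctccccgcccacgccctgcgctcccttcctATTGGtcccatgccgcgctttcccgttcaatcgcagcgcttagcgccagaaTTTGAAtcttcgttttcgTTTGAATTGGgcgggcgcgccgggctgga
KIF23, chr15:69414189-69414348, plus strand: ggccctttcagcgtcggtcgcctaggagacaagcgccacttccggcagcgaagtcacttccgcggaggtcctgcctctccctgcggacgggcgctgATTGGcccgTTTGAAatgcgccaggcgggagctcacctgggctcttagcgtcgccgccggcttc
KIF18A, chr11:28108157-28108316, minus strand: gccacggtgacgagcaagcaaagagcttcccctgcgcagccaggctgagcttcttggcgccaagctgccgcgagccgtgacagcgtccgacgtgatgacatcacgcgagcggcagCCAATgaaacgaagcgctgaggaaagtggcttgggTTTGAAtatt
KIF11, chr10:92592970-92593129, plus strand: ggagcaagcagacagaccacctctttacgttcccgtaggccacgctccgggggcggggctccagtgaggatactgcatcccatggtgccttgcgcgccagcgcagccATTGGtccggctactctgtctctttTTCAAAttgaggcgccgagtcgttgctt
CCNB1, chr5:69166990-69167149, plus strand: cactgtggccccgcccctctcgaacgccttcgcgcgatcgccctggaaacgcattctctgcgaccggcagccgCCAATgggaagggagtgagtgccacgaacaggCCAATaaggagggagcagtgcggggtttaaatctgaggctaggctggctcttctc
AURKB, chr17:8210226-8210385, minus strand: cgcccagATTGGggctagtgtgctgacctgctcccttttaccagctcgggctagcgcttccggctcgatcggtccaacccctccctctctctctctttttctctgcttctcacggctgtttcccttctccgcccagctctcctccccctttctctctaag
PLK1, chr16:23678729-23678888, plus strand: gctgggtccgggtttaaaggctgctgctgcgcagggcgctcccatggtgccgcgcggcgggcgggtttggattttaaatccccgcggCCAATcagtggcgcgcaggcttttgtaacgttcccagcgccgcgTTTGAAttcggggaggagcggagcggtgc

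In PLK1 the first CHR letter lies 29 bases before the start, and the CCAAT box lies 73 bases before it. MKI67, the gene of the Ki-67 antigen, has CHR letters at 47 and 29 bases, and the second of these shares 1 base with a reversed CCAAT box at 24 bases. KIF23, KIF18A and KIF11 each hold 1 CHR, at 55, 10 and 28 bases. CCNB1 holds CCAAT boxes at 87 and 55 bases and no CHR of these letters in the window. AURKB is shown from the first of its 2 listed starts and holds a single reversed CCAAT box, at 153 bases. These matches are descriptions of the letters, and binding was not measured.

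None of the 30 mitotic genes passed the test under the RING1B hairpin in either line. The shares over all genes were 3.74% in A673 and 0.0672% in SK-ES1. Under the control hairpin 10 members, led by MKI67, FOXM1 and AURKB, were lower in SK-ES1 than in A673, against 17% of all genes. Averaged over the 30 members, the log2 level was 8.58 and 8.52 in the A673 shGFP arrays and 8.48 and 8.55 in the A673 shRING1B arrays. The SK-ES1 shGFP arrays had 8.25 and 8.25, and the SK-ES1 shRING1B arrays 8.17 and 8.29. The 4 SK-ES1 arrays thus all lay below the 4 A673 arrays, while the arrays of the 2 hairpins overlapped within each line. In the heat map of the members most rows change colour between A673 and SK-ES1 and few between hairpins.

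**Figure D1:**
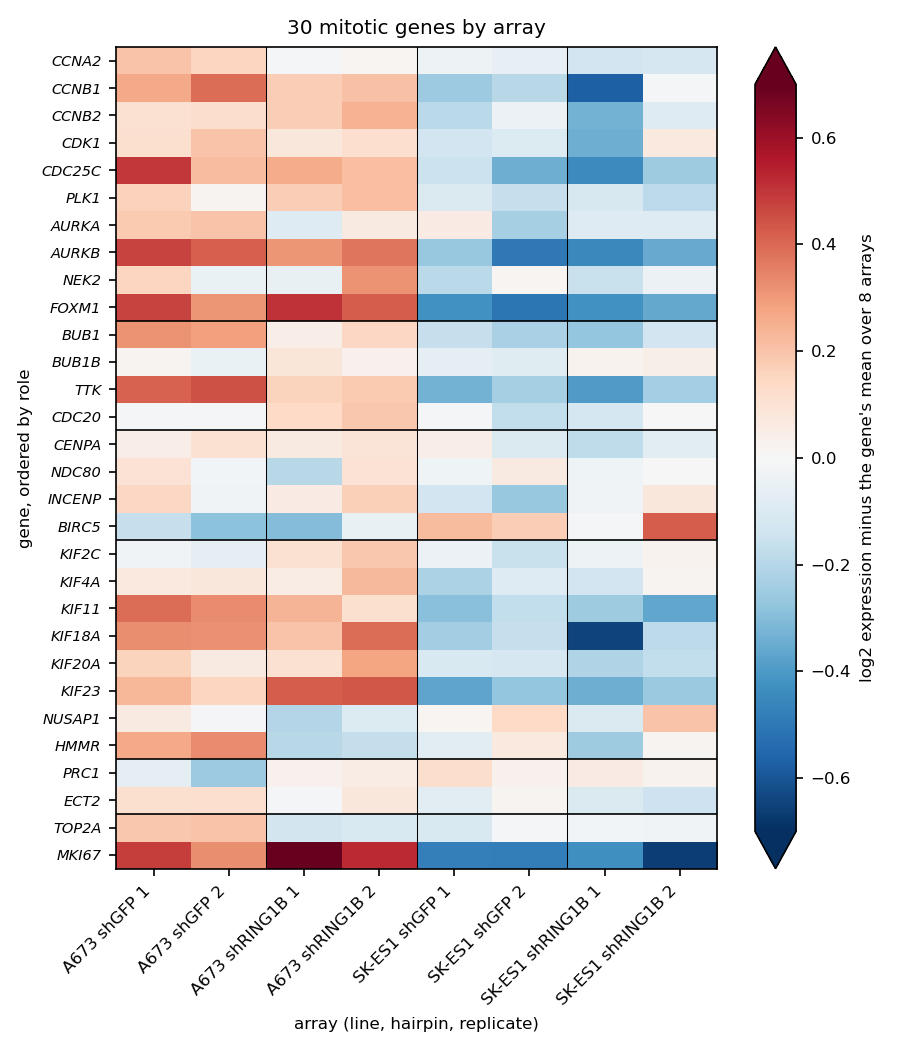
Heat map of the 30 measured mitotic genes (rows, ordered by role with lines between roles) in the 8 arrays (columns), coloured by log2 expression minus the mean of that gene over the 8 arrays. FOXM1, AURKB and MKI67 are high in the 4 A673 arrays and low in the 4 SK-ES1 arrays, BIRC5 runs the other way, and columns of the same line look alike under both hairpins.

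AURKB, the kinase of the chromosomal passenger complex, was read by line and hairpin. Its log2 level was 9.63 and 9.58 in A673 shGFP, 9.47 and 9.53 in A673 shRING1B, 8.90 and 8.66 in SK-ES1 shGFP, and 8.71 and 8.81 in SK-ES1 shRING1B. In A673 both shRING1B arrays lay just below both shGFP arrays, and in SK-ES1 the hairpins overlapped. The log2 change under shRING1B was -0.10 in A673 (SE 0.121, 95% interval -0.37 to 0.17, limma adjusted p = 0.705) and -0.018 in SK-ES1 (interval -0.29 to 0.25, adjusted p = 0.991). The mean of both effects was -0.06 (interval -0.25 to 0.13), and their difference, SK-ES1 minus A673, was 0.08 (interval -0.30 to 0.47, limma adjusted p = 0.879). The sign of the SK-ES1 change turned when SK-ES1 shGFP replicate 1 was left out (0.10) or SK-ES1 shRING1B replicate 1 (0.032). Between the lines, by contrast, AURKB was lower in SK-ES1 by 0.83 on the log2 scale under shGFP, a level 1.77-fold higher in A673 (limma adjusted p = 0.000507). From the other 4 arrays, those with shRING1B, the line difference was -0.74 (limma adjusted p = 0.000986).

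FOXM1, the forkhead factor that activates many of the other members, had log2 levels of 8.06 and 7.89 in A673 shGFP and 8.09 and 8.01 in A673 shRING1B. In SK-ES1 it had 7.16 and 7.08 under shGFP and 7.17 and 7.23 under shRING1B. The hairpins overlapped in A673, while in SK-ES1 both shRING1B arrays lay above the shGFP arrays by a small margin. The log2 change was 0.07 in each line, with a 95% interval of -0.18 to 0.33 in both (limma adjusted p = 0.788 in A673 and 0.939 in SK-ES1), and in A673 its sign turned without A673 shGFP replicate 2 (-0.011). The mean of both effects was 0.07 (interval -0.11 to 0.26), and the difference of the effects had an interval of -0.36 to 0.36. FOXM1 was lower in SK-ES1 by 0.86 under shGFP (SE 0.115, 1.81-fold, limma adjusted p = 0.000288) and by the same 0.86 under shRING1B (limma adjusted p = 0.00028). The line difference of both AURKB and FOXM1 was called in each of 15 alternatives under each hairpin, with adjusted p of at most 0.0113 for AURKB and 0.00468 for FOXM1.

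**Figure D2:**
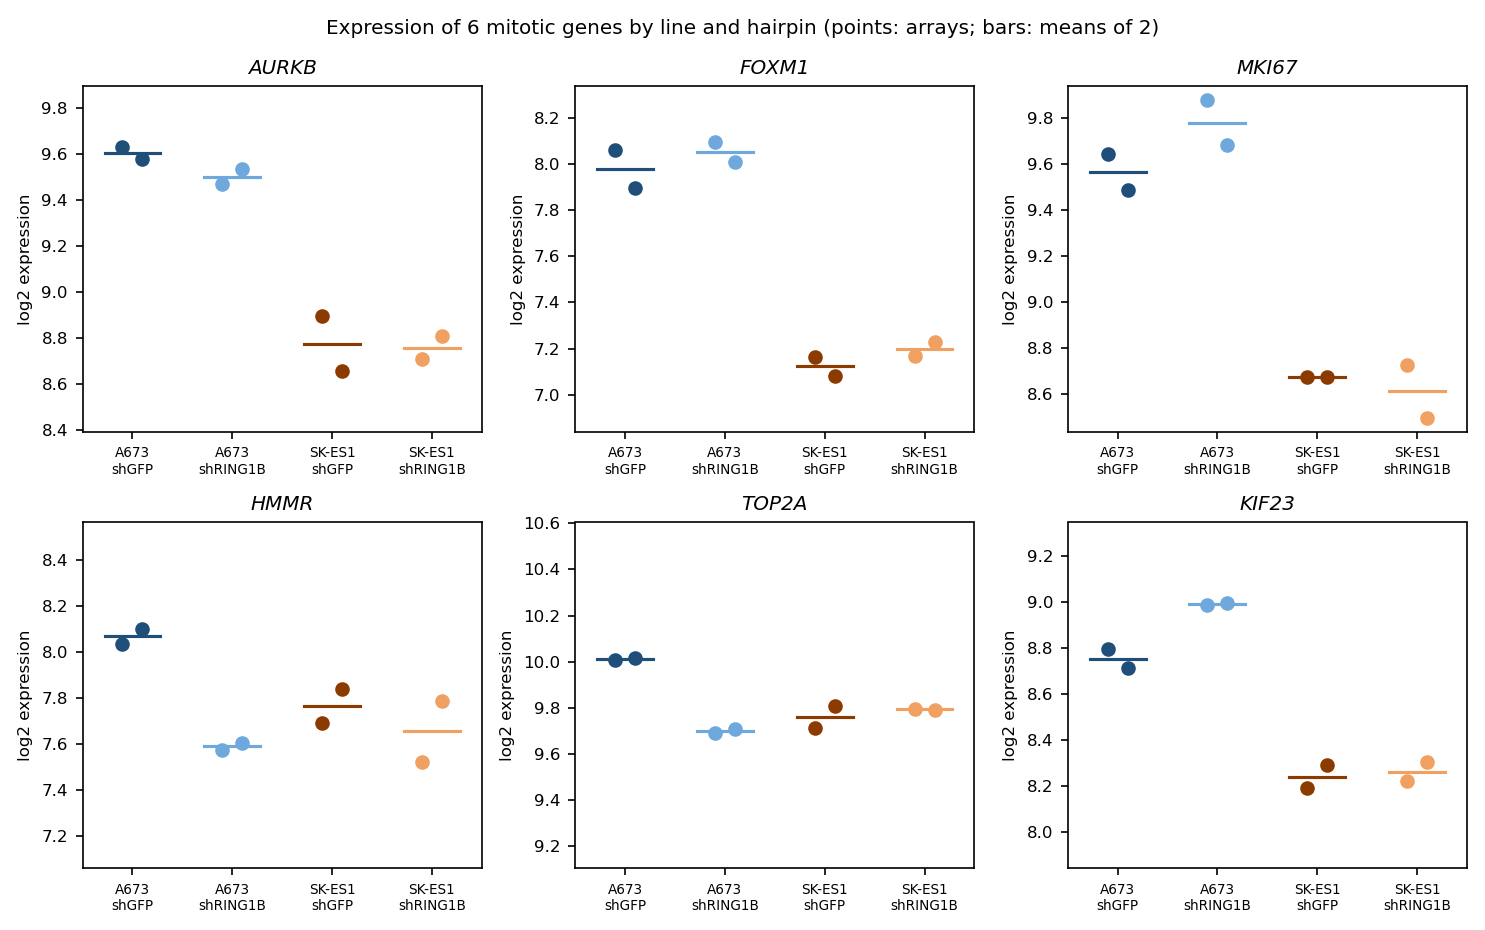
Log2 expression of AURKB, FOXM1, MKI67, HMMR, TOP2A and KIF23 in the 4 groups of line and hairpin, with a point for each array and a bar for the mean of 2 arrays. Each panel spans the same range of log2 units. AURKB, FOXM1, MKI67 and KIF23 separate by line, while HMMR and TOP2A are lower in A673 with shRING1B than in A673 with shGFP.

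In A673, shRING1B against shGFP, none of the 30 members was called by limma at an adjusted p under 0.05, against 3.74% of all 14884 genes. The members split evenly, 15 above and 15 below 0, with a median log2 change of -0.014 and a range of -0.48 to 0.24. Over all genes the median was 0.012 and 52.2% lay above 0. With each array centred on the median of the named genes, the members' median was 0.055 and that of all genes 0.081. At an unadjusted p under 0.05, 3 members were lower and 0 higher, against 10.1% and 8.85% of all genes. No member's 95% interval reached beyond -0.76 or 0.50, so that a 2-fold change, 1 on the log2 scale, lay outside the interval of each of the 30.

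The lower end in A673 was held by HMMR, TOP2A and TTK. HMMR, a spindle protein that also binds hyaluronan, had 8.03 and 8.10 under shGFP and 7.58 and 7.61 under shRING1B. The 2 hairpins were well separated, and the log2 change was -0.48 (SE 0.126, 95% interval -0.76 to -0.20, limma adjusted p = 0.0712). HMMR passed the threshold with dim genes left out (adjusted p = 0.0423) and with a trended, robust variance (adjusted p = 0.0121), and over the 16 alternatives its adjusted p ranged up to 0.352. TOP2A, the topoisomerase that untangles sister chromatids, had 10.01 and 10.02 under shGFP and 9.69 and 9.71 under shRING1B, a change of -0.31 (limma adjusted p = 0.148). Its SK-ES1 arrays had 9.71 and 9.81 under shGFP and 9.80 and 9.79 under shRING1B. It passed with the trended, robust variance alone (adjusted p = 0.0173). TTK, the checkpoint kinase MPS1, had 8.41 and 8.44 under shGFP and 8.15 and 8.18 under shRING1B, a change of -0.26 (limma adjusted p = 0.244).

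At the upper end in A673, KIF23, KIF2C and PRC1 had the lowest p among members above 0, and MKI67 lay between KIF23 and PRC1 in size at 0.21. KIF23, a motor of the central spindle, had 8.80 and 8.71 under shGFP and 8.99 and 8.99 under shRING1B, a change of 0.24 (SE 0.11, interval -0.01 to 0.48, limma adjusted p = 0.28). KIF2C, a kinesin that shortens microtubules at kinetochores, had 8.27 and 8.23 under shGFP and 8.40 and 8.48 under shRING1B, a change of 0.19 (limma adjusted p = 0.398). PRC1, which bundles microtubules of the spindle midzone, had 8.40 and 8.21 under shGFP and 8.49 and 8.51 under shRING1B, a change of 0.20 (limma adjusted p = 0.406), and its SK-ES1 arrays had 8.59 and 8.49, and 8.53 and 8.49. In each of these 3 genes both shRING1B arrays lay above both shGFP arrays. Over the 30 members the shRING1B arrays lay wholly above in 8 and wholly below in 11, against 26% and 23.9% of all genes.

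By role, the A673 changes were small in each class. The 10 cyclins, kinases and regulators ranged from -0.21 for AURKA to 0.10 for PLK1, the Polo kinase, with 4 above 0. The 4 checkpoint and anaphase genes (BUB1, BUB1B, TTK and CDC20) ranged from -0.26 to 0.18, with the high end at CDC20, the activator of the anaphase-promoting complex. The 4 centromere and passenger genes (CENPA, NDC80, INCENP and BIRC5) ranged from -0.09 to 0.05. The 8 motor and spindle genes ranged from -0.48 to 0.24. Of the 2 cytokinesis genes, PRC1 stood at 0.20 and ECT2, the exchange factor that activates RhoA at the cell equator, at -0.08. Of the 2 chromosome genes, TOP2A stood at -0.31 and MKI67 at 0.21.

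In SK-ES1 the members lay closer to 0. None of the 30 was called by limma, against 0.0672% of all genes, and at an unadjusted p under 0.05 the members numbered 0 in either direction, against 3.23% higher and 4.13% lower over all genes. The median change was -0.024, with 9 above and 21 below 0 and a range of -0.21 to 0.23, and the median over all genes was -0.0039 with 49% above 0. The 95% intervals of the 30 lay between -0.56 and 0.49. The shRING1B arrays lay wholly above the shGFP arrays in 4 members and wholly below in 3, against 17.8% and 19.3% of all genes.

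The largest value in SK-ES1 was that of INCENP, the scaffold of the passenger complex. It had 7.78 and 7.65 under shGFP and 7.89 and 7.99 under shRING1B, a log2 change of 0.23 (SE 0.12, interval -0.04 to 0.49, limma adjusted p = 0.759). BUB1B, the checkpoint protein BUBR1, had 7.40 and 7.38 under shGFP and 7.49 and 7.50 under shRING1B, a change of 0.11 (limma adjusted p = 0.895). In A673 BUB1B had 7.48 and 7.41 under shGFP and 7.54 and 7.49 under shRING1B, and INCENP had 8.06 and 7.89, and 7.97 and 8.08. KIF2C stood at 0.09, with 8.25 and 8.14 under shGFP and 8.26 and 8.32 under shRING1B. The shRING1B arrays were the higher ones in each of these 3.

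At the low end, KIF18A, the kinesin that aligns chromosomes on the spindle, had 7.34 and 7.42 under shGFP and 6.93 and 7.40 under shRING1B, a change of -0.21 (limma adjusted p = 0.843). HMMR had 7.69 and 7.84 under shGFP and 7.52 and 7.79 under shRING1B, a change of -0.11 (limma adjusted p = 0.913). Both values rested on SK-ES1 shRING1B replicate 1: without it KIF18A stood at 0.020 and HMMR at 0.024. CENPA, the histone H3 variant of centromeres, had 7.78 and 7.64 under shGFP and 7.56 and 7.66 under shRING1B, a change of -0.10 with overlapping arrays (limma adjusted p = 0.905), and in A673 it had 7.79 and 7.84, and 7.80 and 7.83.

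The 2 SK-ES1 shRING1B arrays differed from each other in these genes by a larger median than the 2 hairpins did. Replicate 2 was higher than replicate 1 in 24 of the 30 members, with a median difference of 0.0997 on the log2 scale, while over all genes 48.4% were higher and the median was -0.0076. CCNB1, cyclin B1, differed by 0.56 between these 2 arrays, with 7.83 in replicate 1 and 8.39 in replicate 2. CDK1, its kinase, had 7.72 and 8.13. MKI67, PLK1, KIF11, PRC1, ECT2 and TOP2A were lower in replicate 2, by the most in MKI67, with 8.73 in replicate 1 and 8.50 in replicate 2. In A673 shRING1B replicate 2 was higher in 25 of 30, with a median difference of 0.0442, against 57.3% and 0.0389 over all genes. Replicate 2 was higher in 11 of 30 in A673 shGFP and in 14 in SK-ES1 shGFP, against 48.8% and 49.8% of all genes. The median differences in these shGFP groups were -0.0504 and -0.0064.

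**Figure D3:**
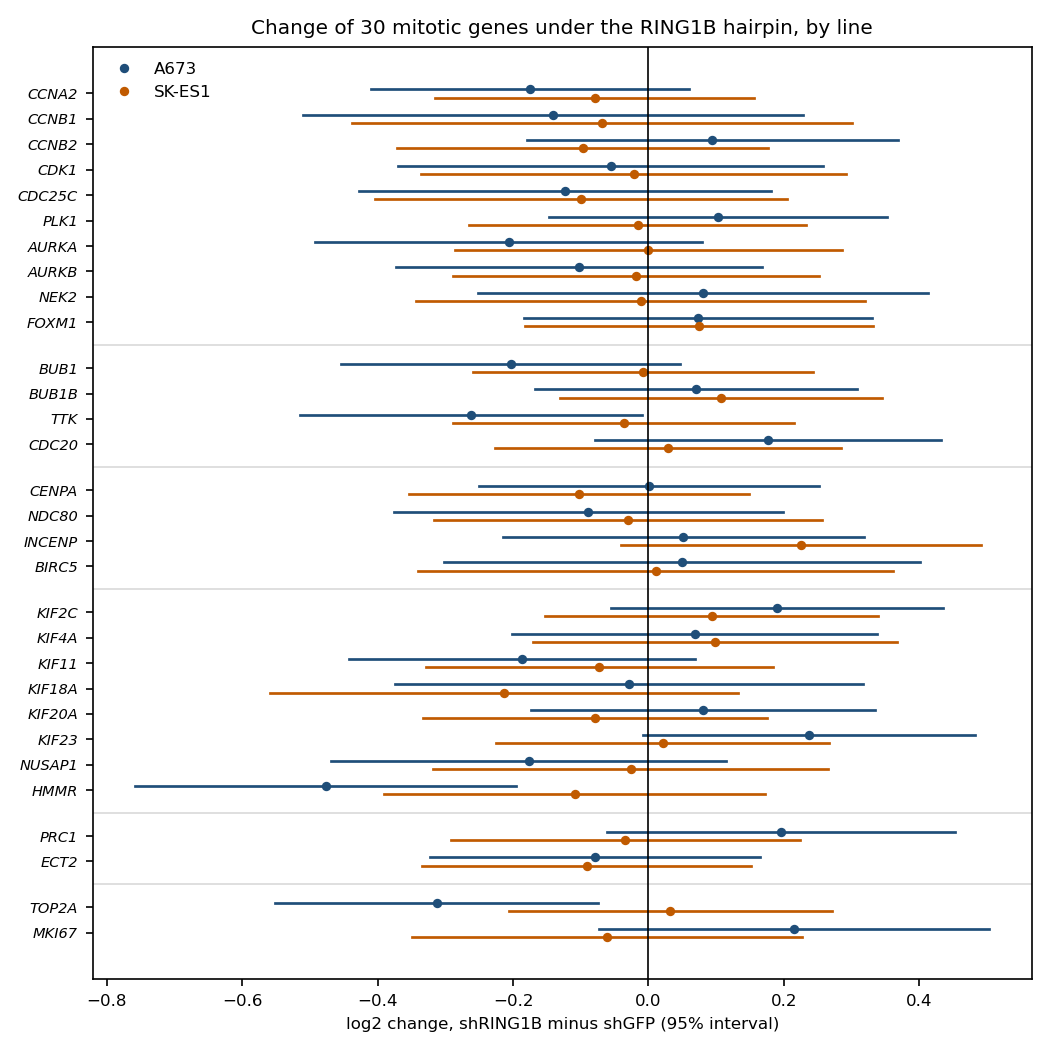
Log2 change, shRING1B minus shGFP, of the 30 mitotic genes in A673 (blue) and SK-ES1 (orange), with points for the estimate and lines for the 95% interval from limma, ordered by role. The points lie between -0.48 and 0.24, and the A673 intervals of HMMR, TOP2A and TTK lie below 0 without adjustment.

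Over both lines, the mean of the 2 effects was called for none of the 30 members by limma, against 1.36% of all genes, and 1 member was lower and 0 higher at an unadjusted p under 0.05, against 8.71% and 5.74%. HMMR stood at -0.29 (SE 0.0892, interval -0.49 to -0.09, limma adjusted p = 0.165), TTK at -0.15 and TOP2A at -0.14. KIF2C stood at 0.14, INCENP at 0.14 and KIF23 at 0.13, with adjusted p of 0.449 or more in this limma fit. HMMR passed with the trended, robust variance (adjusted p = 0.0424). The changes in the 2 lines come from separate arrays. Across the 30 genes, which are not independent replicates, they correlated at r = 0.308 (rank correlation 0.272), with the same sign in 22. These figures were not computed over all genes, so they are not read as particular to the members.

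The difference of the 2 effects, SK-ES1 minus A673, was likewise called for none of the 30 by limma, against 0.786% of all genes, and 1 member was higher and 0 lower at an unadjusted p under 0.05, against 7.17% and 6.53%. The member with the lowest p was TOP2A, at 0.35 (interval 0.01 to 0.68, limma adjusted p = 0.358). HMMR stood at 0.37 (interval -0.03 to 0.77) and TTK at 0.23. MKI67 stood at -0.28, with 9.64 and 9.49 in A673 shGFP, 9.88 and 9.68 in A673 shRING1B, and no separation of the hairpins in SK-ES1. PRC1 and KIF23 followed at -0.23 and -0.22. An unequal response of the lines was therefore not detectable for any of the 30 at this number of arrays.

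Between the lines under shGFP, 10 of the 30 mitotic genes (33.3%) were called lower in SK-ES1 by limma and 0 were called higher, against 17% lower and 13.7% higher over all genes. Among the 4467 genes at least as bright as the dimmest member, 21.1% were called lower and 19% higher. The members' median difference was -0.24, with 27 of 30 below 0, and the median over all genes was 0.0092 with 48.9% below 0. Both SK-ES1 arrays lay below both A673 arrays in 23 members and above in 2, against 32.6% and 32.3% of all genes. When each array was instead centred on the median of the named genes, the median of all genes was 0.107 in this contrast and the members' median was -0.142, with 23 below 0. That scaling gave 8 members lower and 1, BIRC5, higher, and turned the split over all genes from 2043 higher and 2529 lower to 2860 higher and 2054 lower.

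MKI67 had the largest difference of the 30, with 9.64 and 9.49 in A673 shGFP and 8.68 and 8.67 in SK-ES1 shGFP. It was lower in SK-ES1 by 0.89 on the log2 scale (SE 0.129, 1.85-fold, limma adjusted p = 0.000486). TTK had 8.41 and 8.44 against 7.67 and 7.76, a difference of -0.71 (limma adjusted p = 0.000878). BUB1, which recruits checkpoint proteins to kinetochores, had 8.70 and 8.67 against 8.22 and 8.16, a difference of -0.50 (limma adjusted p = 0.00726). In the shRING1B arrays BUB1 had 8.43 and 8.53 in A673 and 8.11 and 8.25 in SK-ES1, and TTK had 7.60 and 7.76 in SK-ES1. In each of these genes the shGFP arrays of the 2 lines were far apart relative to the gap between arrays of one line.

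Of the kinesins, KIF11, the bipolar motor that pushes spindle poles apart, had 9.84 and 9.78 in A673 and 9.16 and 9.28 in SK-ES1, a difference of -0.59 (limma adjusted p = 0.00291). KIF23 had 8.80 and 8.71 against 8.19 and 8.29, a difference of -0.51 (limma adjusted p = 0.00534). KIF18A had 7.91 and 7.91 against 7.34 and 7.42, a difference of -0.53 (limma adjusted p = 0.0266). In the shRING1B arrays KIF11 had 9.69 and 9.57 in A673 and 9.20 and 9.09 in SK-ES1, and KIF18A had 7.78 and 7.97 in A673. The other measured motor and spindle genes (KIF2C, KIF4A, KIF20A, NUSAP1 and HMMR) were not called.

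Of the cyclins and their regulators, CDC25C, the phosphatase that activates CDK1, had 7.03 and 6.75 in A673 and 6.38 and 6.19 in SK-ES1, a difference of -0.60 (limma adjusted p = 0.00718). CCNB1 had 8.67 and 8.79 against 8.15 and 8.21, a difference of -0.55 (limma adjusted p = 0.0292). In the shRING1B arrays CDC25C had 6.79 and 6.74 in A673 and 6.09 and 6.28 in SK-ES1, and CCNB1 had 8.57 and 8.61 in A673. With AURKB and FOXM1 these make 4 of the 10 genes of this class, and the other 6 (CCNA2, CCNB2, CDK1, PLK1, AURKA and NEK2) had differences between -0.28 and -0.14. Under shGFP, FOXM1, AURKB, MKI67, TTK, BUB1, KIF11 and KIF23 stayed called in each of the 15 alternatives. Not all of these could move the differences: leaving out an shRING1B array changed the spread alone. CDC25C lost its call without A673 shGFP replicate 1 (adjusted p = 0.0705) or SK-ES1 shGFP replicate 2 (0.0592). CCNB1 and KIF18A lost theirs without any one of the 4 shGFP arrays, with adjusted p of up to 0.147 for CCNB1 and 0.122 for KIF18A, with all probe sets tested, and with median centring.

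The 3 members with a value above 0 were BIRC5, PRC1 and NUSAP1. BIRC5, survivin, a subunit of the passenger complex with AURKB and INCENP, had 8.41 and 8.28 in A673 and 8.79 and 8.74 in SK-ES1, a difference of 0.42 (SE 0.157, interval 0.07 to 0.77, limma adjusted p = 0.0705). It passed the threshold in 6 of 15 alternatives, among them repeated quantile normalization (adjusted p = 0.0374), and the highest adjusted p was 0.268. Its partner INCENP stood at -0.26, with 8.06 and 7.89 against 7.78 and 7.65 (limma adjusted p = 0.14). PRC1 stood at 0.23 (limma adjusted p = 0.166) and NUSAP1, a microtubule binder, at 0.05, with 9.69 and 9.61 against 9.64 and 9.76. In the shRING1B arrays BIRC5 had 8.27 and 8.52 in A673 and 8.56 and 9.00 in SK-ES1, and NUSAP1 had 9.42 and 9.52, and 9.52 and 9.82.

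The same line comparison was then read in the 4 shRING1B arrays, whose values did not enter the shGFP differences. Both comparisons share an estimate of spread per gene from all 8 arrays, so their p-values and calls are not independent. This reading was added after the data had been seen. Of the 30 members, 11 were called lower in SK-ES1 by limma and 0 higher, against 17.7% and 13.8% of all genes, with a median difference of -0.23 and 24 of 30 below 0 (48.8% of all genes). Among genes at least as bright as the dimmest member, 24.3% were called lower and 18% higher. Both SK-ES1 arrays lay below both A673 arrays in 20 members and above in 2, against 32.4% and 31.3% of all genes, and in 18 members this order held under each hairpin, against 22.5%. Of the 10 genes called under shGFP, 8 (80%) were called here too, and they make 72.7% of the 11: AURKB, CDC25C, FOXM1, KIF11, KIF18A, KIF23, MKI67 and TTK. Over all genes 12.8% were called lower under both hairpins, which is 75.4% of those called lower under shGFP and 72.5% of those under shRING1B, so the members' overlap was near that of genes in general. MKI67 had 9.88 and 9.68 in A673 and 8.73 and 8.50 in SK-ES1, lower by 1.16 in SK-ES1 (2.24-fold, limma adjusted p = 7.77e-05). KIF23 had 8.99 and 8.99 against 8.22 and 8.30, a difference of -0.73 (limma adjusted p = 0.000612).

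BUB1 and CCNB1 missed the threshold in the shRING1B arrays, with differences of -0.30 and -0.48 (limma adjusted p = 0.0692 and 0.0511). CCNB2, cyclin B2, KIF20A, a motor of the central spindle, and PLK1 passed it here and not under shGFP. CCNB2 had 7.93 and 8.00 in A673 and 7.43 and 7.66 in SK-ES1, a difference of -0.42 (limma adjusted p = 0.0258). KIF20A had 8.97 and 9.15 against 8.66 and 8.70, a difference of -0.38 (0.0276). PLK1 had 10.79 and 10.83 against 10.51 and 10.44, a difference of -0.34 (0.0424), and lost its call in 10 of 15 alternatives. Under shGFP, in A673 and then SK-ES1, CCNB2 had 7.86 and 7.88, and 7.57 and 7.72. KIF20A had 9.02 and 8.93, and 8.76 and 8.75, and PLK1 had 10.78 and 10.64, and 10.52 and 10.46. CCNB2 and KIF20A each lost theirs in 4 of 15, KIF11 in 2, and TTK and CDC25C in 1, without SK-ES1 shRING1B replicate 1 (0.0599 and 0.0688). Without that array fewer members passed, and so did a smaller share of all genes, and BIRC5 stood at 0.60. BIRC5 stood at 0.38 with the 4 arrays (limma adjusted p = 0.0953). It passed as higher in SK-ES1 with repeated quantile normalization (limma adjusted p = 0.0473) and with the trended, robust variance (limma adjusted p = 0.0272).

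**Figure D4:**
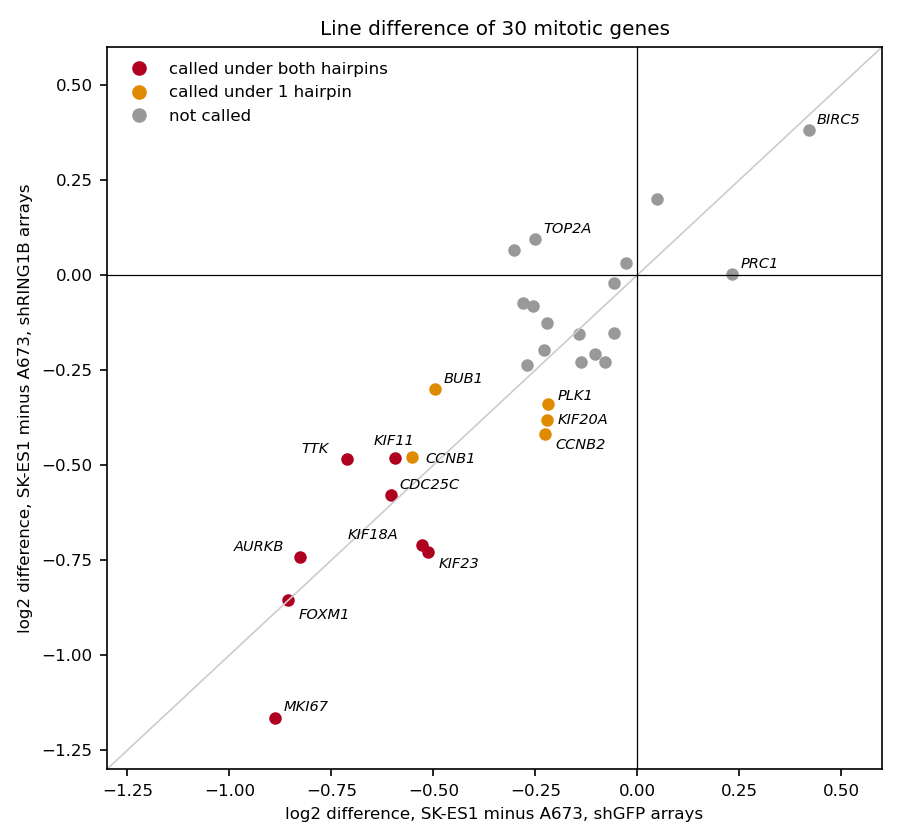
Log2 difference between the lines, SK-ES1 minus A673, of each of the 30 mitotic genes in the shGFP arrays (horizontal axis) and in the shRING1B arrays (vertical axis), with the line of equal values in grey and colours for the limma calls. MKI67, FOXM1 and AURKB are farthest to the lower left, BIRC5 is the uppermost point, and HMMR, TOP2A and NDC80 change sign between the hairpins.

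HMMR, TOP2A and NDC80 had values of opposite sign under the 2 hairpins. The share of all genes with such a change of sign was not computed. NDC80 was 1.02-fold higher in A673 under shGFP and 1.02-fold higher in SK-ES1 under shRING1B. HMMR stood at -0.30 between the lines under shGFP and at 0.07 under shRING1B, and TOP2A at -0.25 and 0.09, and none of these 4 values was called (limma adjusted p of 0.101 or more). The difference between the 2 values of a gene is the difference of the hairpin effects described above, which was not called for any of these genes. Both measured fibroblast markers moved with the line. LUM stood at 3.02 to 3.21 in A673 shRING1B and 5.34 to 5.99 in SK-ES1 shRING1B, and DCN was higher in SK-ES1 by 0.80 under shGFP and 0.67 under shRING1B (limma adjusted p = 0.00107 and 0.00298). Their part in the line difference of the mitotic genes was not tested.

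Of 107 further genes of mitosis and its transcriptional control, 87 were measured. Under shRING1B none of the 87 was called by limma in A673 or in SK-ES1, against 3.74% and 0.0672% of all genes. At an unadjusted p under 0.05, 9 were higher and 7 lower in A673, against 8.85% and 10.1% of all genes. In SK-ES1, 0 were higher and 1 lower, against 3.23% and 4.13%. In A673, RAD21, a subunit of the cohesin ring, had 8.31 and 8.42 under shGFP and 7.85 and 7.84 under shRING1B, a change of -0.52 (limma adjusted p = 0.0544). BUB3, a checkpoint protein that carries BUB1 to kinetochores, stood at -0.34 (limma adjusted p = 0.135). On the other side SHCBP1 stood at 0.48 (limma adjusted p = 0.0551) and E2F2, an activator of S-phase genes, at 0.47 with 6.99 and 6.92 under shGFP and 7.42 and 7.44 under shRING1B (limma adjusted p = 0.0563). These 4 genes passed with the trended, robust variance (adjusted p of 0.0172 for BUB3), RAD21, SHCBP1 and E2F2 also with dim genes left out, and SHCBP1 and E2F2 also with median centring (0.0373 and 0.0392). In SK-ES1, PTTG1, the securin, stood at -0.46 and DEPDC1 at -0.22 (limma adjusted p = 0.623 and 0.748), while TFDP1, the partner of E2F factors, stood at 0.19 and CDC25A, a phosphatase that activates cyclin-dependent kinases, at 0.25 (limma adjusted p = 0.784 and 0.801). The mean of both effects was called for none of the 87 by limma, against 1.36% of all genes. At an unadjusted p under 0.05, 7 were higher and 5 lower, against 5.74% and 8.71% of all genes. The mean effect was 0.31 for both E2F2 and E2F1, -0.27 for RAD21 and -0.24 for DEPDC1. The difference of the effects was called for none either, against 0.786% of all genes. At an unadjusted p under 0.05, 1 was higher and 4 lower, against 7.17% and 6.53%. The difference was 0.50 for RAD21, 0.38 for ANAPC1, a subunit of the anaphase-promoting complex, -0.53 for E2F8 and -0.45 for SHCBP1.

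Between the lines under shGFP, 29 of these 87 were called lower in SK-ES1 and 6 higher by limma, against 17% and 13.7% of all genes, with a median of -0.19 and 24 above 0. The lower ones included CKAP5, a microtubule polymerase, with 10.40 and 10.27 in A673 and 8.88 and 9.00 in SK-ES1, lower by 1.39 (limma adjusted p = 8.31e-06). CENPU, a protein of the inner kinetochore, was lower by 1.05 (limma adjusted p = 0.000119). KIF15, a spindle kinesin that works beside KIF11, was higher in SK-ES1 by 0.95, with 7.26 and 7.26 against 8.16 and 8.27 (limma adjusted p = 9.57e-05). E2F7, a repressor of the E2F family, was higher by 0.75 (limma adjusted p = 0.00079). Of 19 other centromere and kinetochore genes 7 were lower and 1 higher, and of 23 other motor, spindle and cytokinesis genes 10 were lower and 1 higher. Among the 23 other regulators, 5 were lower and 2 higher. The shares over all genes just given apply to these counts too. Of the other checkpoint, anaphase and cohesin genes, ESPL1, FZR1, RAD21, SMC3 and TRIP13 were called lower under shGFP. Of the other condensin and chromosome genes, SMC2 and LMNB2 were called lower. The rest of the genes called higher were among these last classes. Under shRING1B 34 of the 87 were called lower and 5 higher, against 17.7% and 13.8% of all genes. CKAP5 was lower by 1.46 and SPAG5, a spindle protein, by 1.20, and KIF15 was higher by 1.23 and CDC27, a subunit of the anaphase-promoting complex, by 0.93. Of the 87, 26 were lower under both hairpins, 89.7% of the 29 and 76.5% of the 34, against 75.4% and 72.5% over all genes.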

How the data were processed

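RNA of 8 samples was measured on 1-colour Affymetrix arrays. The authors deposited log2 expression values per probe set, made with RMA and limma per the submitters' processing notes, without stated versions. The quantile step of RMA gives the arrays nearly equal distributions and so hides a shift of most genes. Without scanner files, signal over background was not measured; precision is limited by the number of arrays.

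There were 48144 probe sets: 16098 (33.4%) with 1 gene symbol, 0 with several and 32046 with none here. Symbols were updated through gene IDs in RefSeq's table (GRCh38.p14). Each gene took its probe set with the highest mean. A linear model of 4 group means on all 8 arrays was fitted with limma 3.58.1 in R 4.3.3 and tested on simulated data. P-values are two-sided and adjusted by Benjamini-Hochberg over 14884 genes, and a gene is called at an adjusted p under 0.05. Values in every array are given for AURKB, FOXM1, called members and the 3 members with the smallest p per direction, counted per comparison. Of the further genes, the 2 with the smallest p per direction and comparison are named. Other values named were chosen after they were seen. Alternatives changed the probe set, normalization, variance model, filter, and arrays fitted. Each member has 1 probe set, so averaging probe sets cannot move its values. Leaving out an array of a hairpin cannot move the line difference under the other hairpin. Replicate numbers follow accession order and only name an array. The members and lists were chosen with earlier results of these data known.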

Additional observations from a re-analysis of the deposited data

How the results depend on the processing

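The line difference of AURKB, FOXM1 and MKI67 kept its direction and its call in each alternative under both hairpins. The counts of calls over all genes moved most. With p-values adjusted over all probe sets, unnamed ones included, the called probe sets numbered 60 for the difference of effects, 4 in SK-ES1, and 7224 and 7606 for the lines under shGFP and shRING1B. Counted over the named genes alone, that setting gave 21 higher and 4 lower for the difference, 14 and 236 in A673, 1 and 79 for the mean, and 1509 and 2024, then 1484 and 2129, for the lines, fewer than the 4572 and 4677 of the named genes. With dim genes left out the calls were 185 for the difference, 339 for the mean effect and 21 in SK-ES1, and with the trended, robust variance 281, 481 and 34, with 1052 in A673. The 4 A673 arrays alone gave 213. Leaving out 1 array gave 101 to 434 calls in A673 (557 with all arrays; the fewest without A673 shGFP replicate 2), 2 to 7 in SK-ES1 (10; without SK-ES1 shGFP replicate 1), 51 to 158 for the mean (202; without SK-ES1 shRING1B replicate 2) and 0 to 72 for the difference (117; without SK-ES1 shRING1B replicate 1). In A673, median centring turned the split over all genes from 105 higher and 452 lower to 202 and 320.

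Members called rose from 0 to 2 in A673 and 1 for the mean effect with the trended, robust variance, against 7.07% and 3.23% of all genes. With dim genes left out the count rose to 1 in A673, against 7.09% of the genes kept. In the shRING1B arrays the count between lines fell with any 1 array left out, and so did the share of all genes called. The members' median moved with median centring to 0.055 in A673, -0.028 for the difference and -0.142 between lines under shGFP, and with repeated quantile normalization to -0.167 between lines under shRING1B. With 1 array left out it was -0.087 to 0.037 in A673, -0.069 to 0.031 in SK-ES1, -0.075 to 0.015 for the mean, -0.062 to 0.067 for the difference and -0.288 to -0.170 between lines under shRING1B.

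Values near 0 changed sign. AURKB ran from -0.137 to 0.10 in SK-ES1 and from -0.035 to 0.203 for the difference with 1 array left out. FOXM1 ran from -0.011 to 0.158 in A673 and from -0.083 to 0.086 for the difference, which was -0.054 with median centring. HMMR ran from -0.242 to 0.024 and KIF18A from -0.447 to 0.020 in SK-ES1, and NUSAP1 from -0.013 to 0.111 between lines under shGFP. The causes were not tested. No paired analysis was possible because the labels give the arrays no replicate number that groups share.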
